A study of Mus musculus with 8 samples.

Results

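The genes described here encode the integrins, the laminins and the proteins of the hemidesmosome, which together fix epidermal cells to the basement membrane. Members were chosen by symbol alone, as integrin α and β subunit genes, laminin chain genes, and Dst, Plec, Cd151, Fermt1, Nid1 and Nid2. Values of 42 such genes are given, of the 50981 distinct symbols in 3 tables. All 42 were listed in the table of unperturbed keratinocytes. Under their own symbol, 40 were listed after hair plucking and 40 in wounds, where Plec and Itga10 had no row of their own.

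RNA-seq was carried out on C57BL/6 mice of 2 genotypes. JunB cKO mice carry floxed JunB alleles and a Cre recombinase under the K14 promoter, so that deletion is directed to basal epidermal progenitors and their progeny and not to the dermis. Wild type mice are JunB +/+ in the labels, and JunB cKO mice JunB -/-. Unperturbed keratinocytes, as the labels call them, had no treatment. The study's text describes the unperturbed material as dorsal skin of mice 60 days old, but for Wnt family genes it names primary epidermal progenitor cells. For hair plucking, back hair was removed on postnatal day 54 and skin was collected on postnatal day 58, 4 days later. For wounds, the labels give 30 days after wounding. The study's wound healing protocol set 4 full-thickness wounds of 6 mm on the shaved back of each mouse, and its Notch inhibition protocol fewer and larger wounds. Which protocol gave these libraries is not stated, and the age of these mice is not given in the sources used here. Each library was made from RNA pooled from 3 samples of a group. The labels list 8 libraries, 1 per genotype in both the unperturbed and the hair plucking group and 2 per genotype in the wound group, but each table holds 1 value per gene and genotype. No difference below therefore has a replicate check, and no SD or test could be given.

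Hemidesmosomes are the anchoring complexes of basal keratinocytes. In them, integrin α6β4 binds laminin-332 in the basement membrane and is linked inside the cell to keratin filaments by plectin and by the epithelial form of dystonin. Other integrins pair 1 α with 1 β subunit and bind laminins, collagens, fibronectin and related ligands, or, on leukocytes and platelets, proteins of other cells and of plasma.

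Values are FPKM, the number of reads per length of transcript and size of library as calculated by the authors, so that levels of different genes can be set side by side within a table. The 3 tables were normalized separately and are only compared within themselves. The log2 ratio given below is log2((JunB cKO FPKM + 1)/(wild type FPKM + 1)), which understates the difference of genes with a low FPKM, and a ratio of at least 1 or at most -1 is called past 2-fold. Junb was at 268 FPKM in wild type against 31.4 in JunB cKO keratinocytes, at 40.8 and 11.7 after hair plucking, and at 33.4 and 15.4 in wounds. Per kb of transcript, 1 FPKM corresponded to about 13.3 reads in wild type against 3.92 reads in JunB cKO keratinocytes, for 12.9 and 10.1 reads after hair plucking, where the wild type value rests on 1 gene locus, and for 34.1 and 31.4 reads in wounds. Receptor genes for odorants, pheromones and bitter taste, which belong to sensory tissues, had a median of 0 FPKM in wild type against 0.543 in JunB cKO keratinocytes. Keratinocyte markers had a summed FPKM of 13373 in wild type against 14244 in JunB cKO keratinocytes, and fibroblast markers one of 13.9 and 14.1. After hair plucking, the fibroblast markers summed to 5158 and 1874 FPKM beside 9285 and 10808 for the keratinocyte markers, although the labels name keratinocyte as the tissue there. Wounds, which the labels call skin, had 10709 and 13589 FPKM of fibroblast markers. In such bulk samples, fewer cells of a type and less RNA per cell cannot be told apart.

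JunB is a subunit of the transcription factor AP-1, whose preferred DNA element is TGAGTCA, or TGACTCA on the other strand. Of the 42 members, 27 had an entry in a RefSeq table of promoters on GRCm38.p6, each from 250 bases before to 50 bases after a transcription start. Among these 27 genes, 2 held the element on either strand, Itgax and Itga9, beside 5.95% of all 27025 symbols in that table. Of the 12 members past 2-fold in a table, 7 had an entry, and Itga9 was the only 1 with the element. The windows of the members with the highest and the lowest log2 ratio among those 7, Itga2b and Itga9, and that of Itgax are shown 5′ to 3′, with the element in capitals. On GRCm38.p6 they lie at chr11:102469834-102470133 on the minus strand for Itga2b, which holds no element, at chr9:118711442-118711741 on the plus strand for Itga9, and at chr7:128129300-128129599 on the plus strand for Itgax. A match is a description of these letters and no evidence of binding.
Itga2b: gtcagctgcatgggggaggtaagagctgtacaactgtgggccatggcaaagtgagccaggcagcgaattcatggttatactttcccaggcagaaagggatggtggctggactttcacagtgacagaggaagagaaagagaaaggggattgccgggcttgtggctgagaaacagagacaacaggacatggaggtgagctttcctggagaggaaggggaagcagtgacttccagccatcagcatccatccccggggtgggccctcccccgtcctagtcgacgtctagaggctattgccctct
Itga9: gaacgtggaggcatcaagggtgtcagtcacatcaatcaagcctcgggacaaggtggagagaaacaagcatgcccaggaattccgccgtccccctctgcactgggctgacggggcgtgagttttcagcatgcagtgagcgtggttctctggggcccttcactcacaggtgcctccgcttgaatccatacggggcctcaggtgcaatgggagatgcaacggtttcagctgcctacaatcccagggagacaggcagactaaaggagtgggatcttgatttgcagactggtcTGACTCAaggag
Itgax: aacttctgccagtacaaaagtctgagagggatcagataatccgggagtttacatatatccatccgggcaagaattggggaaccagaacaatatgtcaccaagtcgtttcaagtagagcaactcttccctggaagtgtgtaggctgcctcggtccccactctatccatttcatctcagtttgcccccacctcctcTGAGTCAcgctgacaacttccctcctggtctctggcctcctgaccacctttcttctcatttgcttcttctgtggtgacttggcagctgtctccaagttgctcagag
The element begins 56 bases before the start in Itgax and 38 bases after the start in Itga9. The start used for Itga9 lies 105002 bases inside the gene as annotated by GENCODE, so that this window is not at the gene's first exon. Itga9 was at 15.9 FPKM in wild type against 3.04 in JunB cKO after hair plucking, and Itgax at 1.91 and 1.70.

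In unperturbed keratinocytes, none of the 42 members was past 2-fold in either direction. Over all 26340 symbols, 9.31% were past 2-fold higher and 0.847% past 2-fold lower in JunB cKO, and over the 13222 symbols with a mean FPKM of at least 1 the shares were 5.57% and 1.52%. Most well expressed members had a somewhat lower value in JunB cKO, as had most symbols at that level. Of the 16 members with at least 10 FPKM in either genotype, 15 were lower in JunB cKO and only Itga3 was higher, at a median log2 ratio of -0.34. In the same table, 78.7% of all symbols at that level were also lower, and the median log2 ratio of symbols with a mean FPKM of at least 1 was -0.12. Relative to that shift, 12 of the 16 members were below the median and 4 above it, beside 65.8% of all symbols at that level below it. The 15 members with a mean FPKM under 1 were all higher in JunB cKO, at a median log2 ratio of 0.33, in the library in which receptor genes were also above 0. The share of all symbols under a mean FPKM of 1 that were higher was not counted. The 15 are therefore not read as a result about the members.

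After hair plucking, 5 of 40 members were past 2-fold higher in JunB cKO and 7 past 2-fold lower. Over all 46036 symbols the shares were 6.42% and 5.62%. Many of those symbols are near 0, and of the 15074 symbols with a mean FPKM of at least 1, 16.3% were past 2-fold higher and 14.6% past 2-fold lower. All 12 members past 2-fold were among the 38 with a mean FPKM of at least 1, and their share lay near that background. The higher members were Lama1, Itgb4, Itga3, Itgae and Itga2b. The lower members were Lama2, Nid2, Fermt1, Itga9, Itgb5, Itgam and Itgb2. Of the 23 members with at least 10 FPKM in either genotype, 10 were lower in JunB cKO, beside 49.6% of all symbols at that level, and 10 were below the median of symbols, beside 50.8%. Nearest to the limit, Nid2 at -1.02 and Itgb4 at 1.05 were just past it, and Itga6 at 0.95 and Lamb1 at -0.80 were not.

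In wounds, 0 of 40 members were past 2-fold in either direction. Over all 46048 symbols 2.14% were past 2-fold higher and 1.97% past 2-fold lower, and over the 16333 symbols with a mean FPKM of at least 1 the shares were 4.97% and 4.43%. Of the 40 members, 29 were above wild type in JunB cKO and 11 below it. Their median log2 ratio was 0.18, beside 0.011 for symbols with a mean FPKM of at least 1. The share of all symbols above wild type was not counted. Among the 23 members with at least 10 FPKM, 7 were lower, beside 52.4% of all symbols at that level, and 8 were below the median of symbols, beside 53.8%. The highest ratios were those of Itga2b at 0.87, Itgb7 at 0.80 and Itgb6 at 0.78, and the lowest was that of Itga3 at -0.61.

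**Figure D1:**
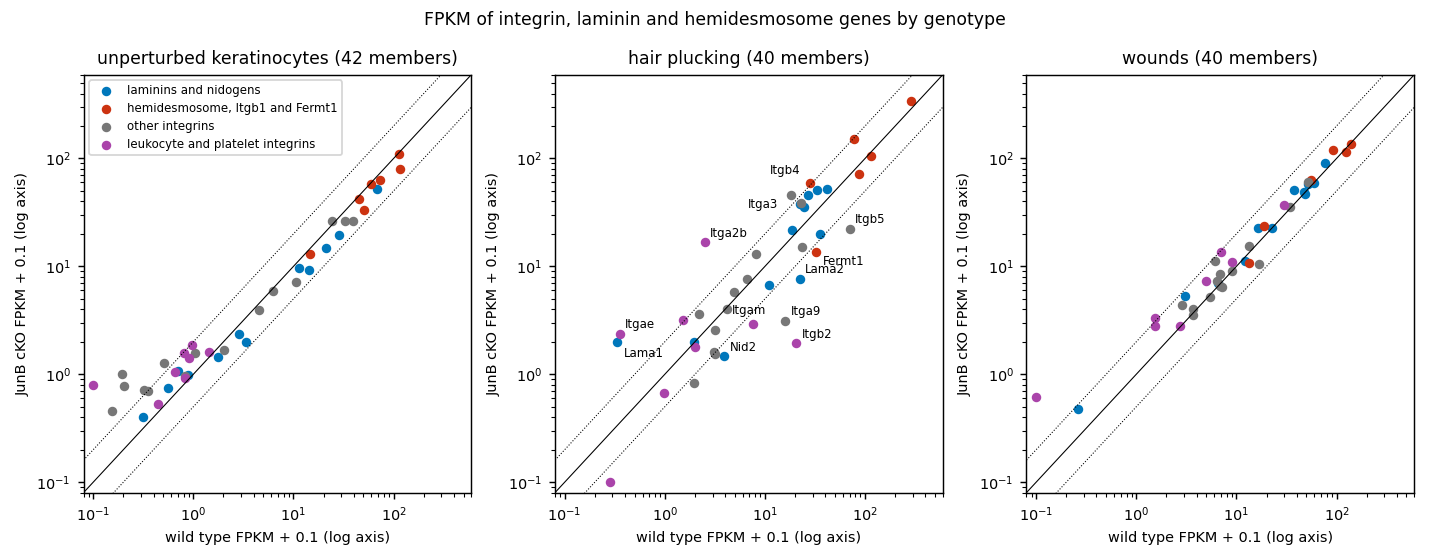
FPKM of each member in wild type (horizontal) and JunB cKO (vertical), with 0.1 added and both axes on a log scale, in the 3 tables. Each point is 1 gene with 1 value per genotype, the solid line marks equal values, the dotted lines a ratio of 2 of the plotted values, and the 12 named genes are those past 2-fold with 1 FPKM added. Well expressed members lie close to the solid line in unperturbed keratinocytes and wounds and spread to both sides of it after hair plucking.

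**Figure D2:**
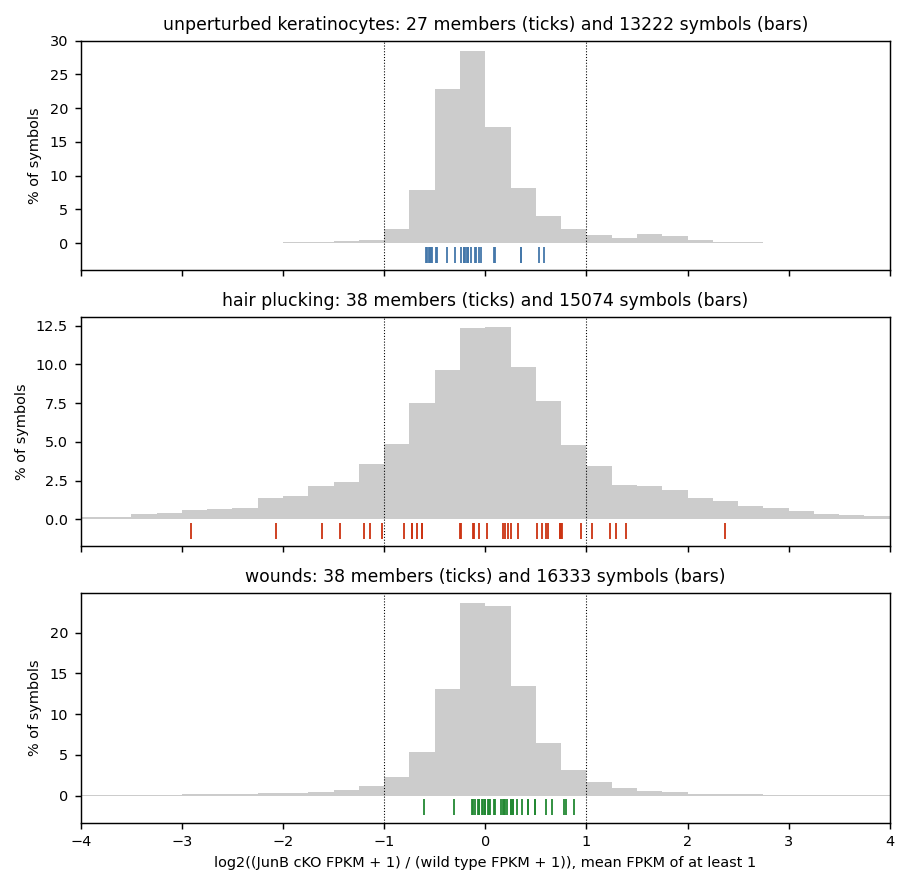
Share of all symbols with a mean FPKM of at least 1 (grey bars, in % of symbols) by log2 ratio of JunB cKO over wild type with 1 FPKM added, and the members as coloured ticks under the bars. The dotted lines mark the 2-fold limit. The ticks spread to both sides of 0 after hair plucking, where 12 lie past the limit, and stay between the limits in both other tables.

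Laminin-332 is the laminin to which integrin α6β4 binds, and Lama3 and Lamb3 encode its α and β chains. Both genes were lower in JunB cKO keratinocytes and higher in JunB cKO after hair plucking, without passing the 2-fold limit. Lamb3, which encodes β3, was at 68.3 FPKM in wild type against 52.2 in JunB cKO keratinocytes, at 26.9 and 45.5 after hair plucking, and at 12.1 and 11.2 in wounds, with log2 ratios of -0.38, 0.73 and -0.11. Lama3, which encodes α3, was at 28.4 and 19.4, at 41.4 and 52.2, and at 22.7 in both genotypes of the wounds, with log2 ratios of -0.53 and 0.33 in the first 2 tables. Relative to the median of symbols, the ratios in keratinocytes were -0.26 for Lamb3 and -0.40 for Lama3.

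The other laminin α chains enter laminins of the epidermis, of blood vessels, of muscle and of nerves. Lama5, the α5 chain of laminins of epidermal and vascular basement membranes, was at 20.9 FPKM in wild type against 14.7 in JunB cKO keratinocytes, at 22.4 and 38.0 after hair plucking, and at 16.5 and 22.4 in wounds. Its log2 ratios of -0.48, 0.74 and 0.42 had the signs of those of Lama3 in the first 2 tables. In keratinocytes, where most symbols with at least 10 FPKM were lower, the ratio of Lama5 was -0.36 relative to the median of symbols. Lama2, the α2 chain known from muscle and nerve, lies on chromosome 10 from 26980036 to 27619758 on the minus strand. It was at 0.454 and 0.654 FPKM in keratinocytes, at 22.1 and 7.56 after hair plucking, and at 47.5 and 48.6 in wounds. After hair plucking its log2 ratio was -1.43, at percentile 9.30 of expressed symbols, and those in both other tables were above 0. Lama4, the α4 chain of laminins of blood vessels, was at 3.26 and 1.89 FPKM in keratinocytes, at 18.4 and 21.6 after hair plucking, and at 37.4 and 50.6 in wounds. Lama1, the α1 chain of early embryonic basement membranes, was at 1.65 and 1.36 FPKM in keratinocytes, at 0.230 and 1.88 after hair plucking (log2 ratio 1.23), and at 0.160 and 0.372 in wounds. The wild type value of Lama1 after hair plucking rests on about 28.2 reads.

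Among the other β and γ chains, none was past 2-fold in any table. Lamb1, the β1 chain of many laminins, was at 2.77 FPKM in wild type against 2.27 in JunB cKO keratinocytes, at 35.1 and 19.7 after hair plucking (log2 ratio -0.80), and at 59.1 and 59.0 in wounds. Lamb2, the β2 chain, was at 14.2 and 9.10, at 24.4 and 35.3, and at 48.6 and 46.6, with log2 ratios of -0.59, 0.51 and -0.06. Lamc1, the γ1 chain found in most laminins other than laminin-332, was at 11.2 and 9.54, at 32.9 and 51.3, and at 76.2 and 91.1, with log2 ratios of -0.21, 0.62 and 0.25. In Lamb1 and Lamb2, which can replace each other in laminins, the signs were opposite after hair plucking. Lamc3, the γ3 chain, did not exceed 5.20 FPKM, its value in JunB cKO wounds, where wild type was at 2.93.

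As FPKM is per length, the share of each α and β chain in the summed FPKM of its family could be given within a table. In keratinocytes, the shares were close in both genotypes. Lama3 made up 51.9% of the α chains in wild type against 51.1% in JunB cKO, and Lamb3 80.1% and 82.1% of the β chains. After hair plucking, the order of the β chains was not the same in both genotypes. Lamb1 came first in wild type with 40.6% and last in JunB cKO with 19.6%, and Lamb3 came first in JunB cKO with 45.3% after 31.1% in wild type. Lama2 made up 21.2% of the α chains in wild type against 6.24% in JunB cKO, and Lama3 stood first in both with 39.6% and 43.0%. In wounds, Lamb1, Lamb2 and Lamb3 kept their order with 49.3%, 40.6% and 10.1% in wild type and 50.5%, 39.9% and 9.58% in JunB cKO.

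**Figure D3:**
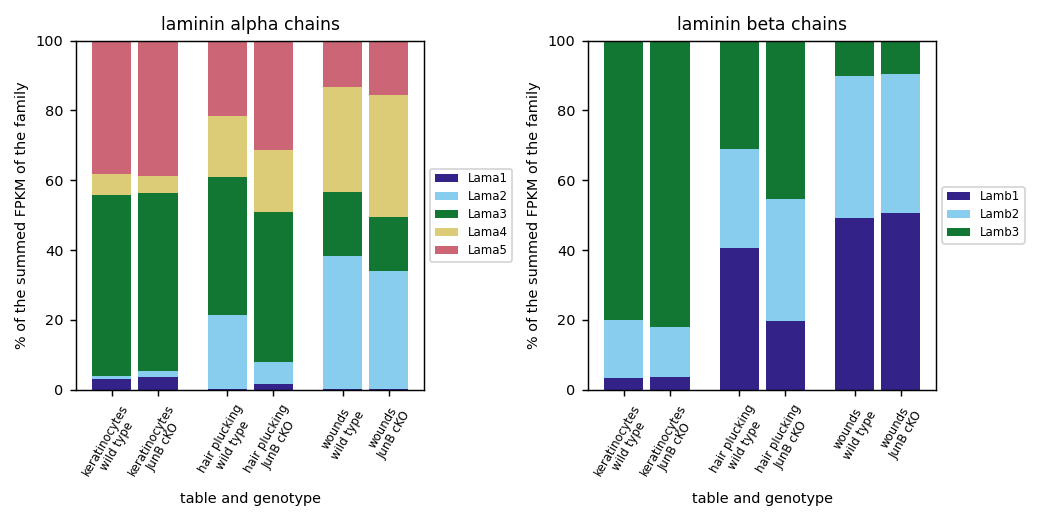
Share of each laminin chain gene in the summed FPKM of the α chains or the β chains (vertical axis, in %), in wild type and JunB cKO of the 3 tables. Each bar is 1 value per genotype without replicates. Both keratinocyte bars are alike in each panel, and after hair plucking Lamb3 takes a larger share in JunB cKO than in wild type and Lamb1 and Lama2 a smaller one.

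Nidogens link laminins to collagen IV. Both were lower in JunB cKO after hair plucking and slightly higher in wounds. Nid2 was at 0.215 FPKM in wild type against 0.300 in JunB cKO keratinocytes, at 3.83 and 1.38 after hair plucking (log2 ratio -1.02, about 240 and 68.1 reads), and at 6.43 and 6.96 in wounds. Nid1 was at 0.597 and 0.961, at 10.8 and 6.64 (log2 ratio -0.62), and at 52.1 and 58.4. In keratinocytes both were below 1 FPKM. After hair plucking, Lama2, Lamb1, Nid1 and Nid2 were all lower in JunB cKO. The other laminin genes reported here were higher, among them Lama4, Lamb2 and Lamc1 at log2 ratios of 0.22, 0.51 and 0.62. In the same table, all 8 fibroblast markers were lower, 5 of them past 2-fold, beside 14.6% of expressed symbols (Col1a1, Col1a2, Col3a1, Pdgfrb and Fbn1), with a median log2 ratio of -1.12. Of the 7 listed markers of skeletal and smooth muscle all 7 were lower, 4 of them past 2-fold (Ckm, Myh4, Tnnt3 and Cnn1), and their summed FPKM was 232 in wild type against 121 in JunB cKO. Of the 5 adipocyte markers 4 were lower, Fabp4 (125 and 27.4 FPKM) and Cidec past 2-fold, and Adipoq was higher at 8.76 and 17.4 FPKM. The 5 markers summed to 147 and 48.8 FPKM, with Fabp4 as the largest part. Of the 7 listed endothelial markers, only Cdh5 was past 2-fold lower, with sums of 82.5 and 61.9 FPKM, and of the 5 Schwann cell markers Sox10 was past 2-fold higher, with sums of 47.3 and 62.7. Whether these cell types had a part in the values of the laminins and nidogens was not tested.

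**Figure D4:**
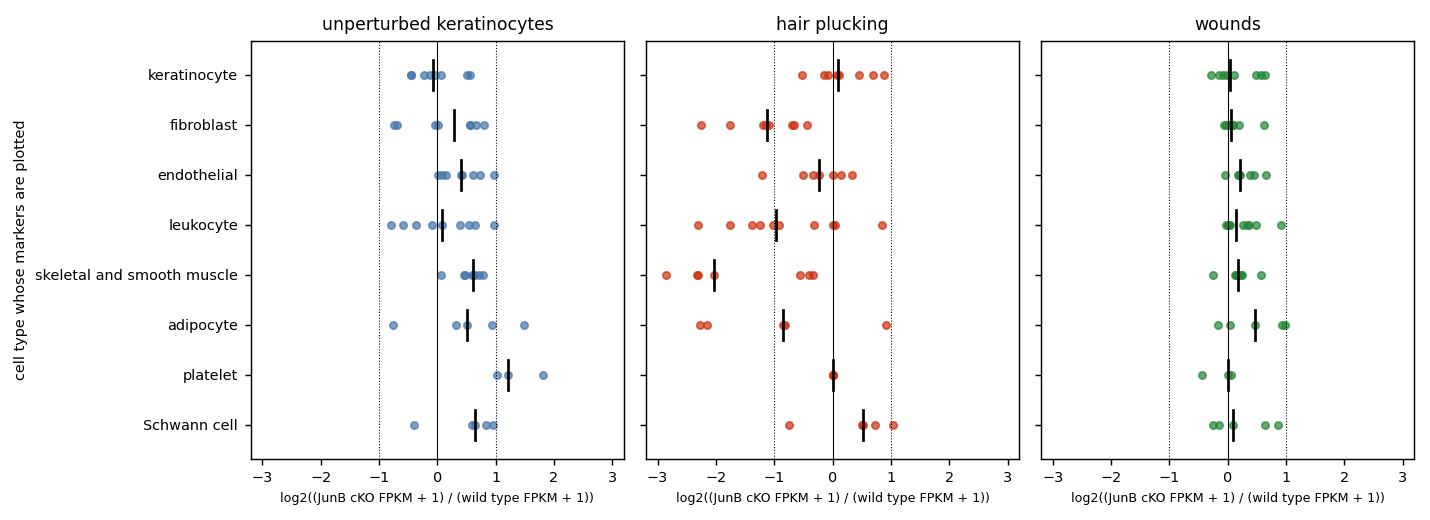
Log2 ratio of JunB cKO over wild type with 1 FPKM added (horizontal axis) for the markers of 8 cell types in the 3 tables. Each point is 1 gene, the vertical bar is the median of the list, and the dotted lines mark the 2-fold limit. After hair plucking, all fibroblast markers lie below 0 with a median of -1.12 and the keratinocyte markers around 0 with a median of 0.10, whereas in wounds no marker lies past the limit.

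The hemidesmosome genes were among the most abundant members in keratinocytes. All 5 were lower in JunB cKO keratinocytes, but the log2 ratios of -0.06 for Plec and -0.04 for Cd151 turned to 0.06 and 0.08 relative to the median of symbols. After hair plucking, both subunits of integrin α6β4 were higher in JunB cKO. Itgb4, which encodes the β4 subunit, lies on chromosome 11 from 115974709 to 116008412 on the plus strand. It was at 73.8 FPKM in wild type against 62.5 in JunB cKO keratinocytes, at 27.8 and 58.7 after hair plucking, and at 18.7 and 23.5 in wounds. The log2 ratio after hair plucking was 1.05, a 2.11-fold higher FPKM, at percentile 84.6 of expressed symbols. Itga6, which encodes its partner α6, was at 116 and 79.6 FPKM in keratinocytes, at 78.3 and 152 after hair plucking, and at 55.4 and 62.5 in wounds, with log2 ratios of -0.54, 0.95 and 0.17. In each table, the 2 subunit genes had ratios of the same sign. In keratinocytes, 78.7% of all symbols with at least 10 FPKM in either genotype were also lower. Relative to the median of symbols, the ratios there were -0.41 for Itga6 and -0.11 for Itgb4. Itgb4 made up 43.2% of the summed FPKM of the β subunits in wild type against 43.4% in JunB cKO keratinocytes, and 10.4% and 26.7% after hair plucking. Itga6 was the most abundant α subunit gene in both genotypes of all 3 tables.

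After hair plucking, the genes of the inner plaque and of the tetraspanin partner differed less than Itga6 and Itgb4. This did not hold in both other tables, where Dst in keratinocytes and Cd151 in wounds (log2 ratio 0.37) differed more than either subunit gene. Dst encodes dystonin, whose epithelial form BPAG1e ties keratin to the hemidesmosome and whose other forms serve muscle and nerve. It was at 50.4 FPKM in wild type against 33.3 in JunB cKO keratinocytes, at 287 and 343 after hair plucking, and at 139 and 137 in wounds, with log2 ratios of -0.58, 0.26 and -0.02. The forms cannot be told apart in these gene values. Plec, which encodes the linker plectin, was at 114 and 109 FPKM in keratinocytes. After hair plucking and in wounds it had no row of its own, and the locus it shared with Parp10 was at 83.4 and 105 FPKM and at 54.4 and 73.3. Cd151, which encodes a tetraspanin bound to integrins α3β1 and α6β4, was at 59.5 and 57.8, at 86.0 and 72.1, and at 92.2 and 119. Its locus in the latter 2 tables also spans Cracr2b.

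Itgb1 and Fermt1 act at the other adhesions of basal cells, the focal adhesions. Itgb1, whose β1 subunit pairs with most α subunits of this set, was close in both genotypes. It was at 45.3 FPKM in wild type against 42.1 in JunB cKO keratinocytes, at 114 and 104 after hair plucking, and at 124 and 114 in wounds. Its log2 ratios were -0.10, -0.12 and -0.12, the first of which became 0.02 relative to the median of symbols. Fermt1, which encodes kindlin-1, an activator of β1 integrins in keratinocytes, lies on chromosome 2 from 132904389 to 132945906 on the minus strand. It was at 14.5 and 13.1 FPKM in keratinocytes, at 32.1 and 13.4 after hair plucking, and at 13.4 and 10.6 in wounds. The value after hair plucking gave a log2 ratio of -1.20, at percentile 11.7 of expressed symbols, and was the only one past 2-fold. Fermt1 had a lower FPKM in JunB cKO in each of the 3 tables. In keratinocytes, however, its log2 ratio of -0.14 was only -0.02 relative to the median of symbols. None of the 8 keratinocyte markers was past 2-fold in the table of hair plucking, where 5 were higher and 3 lower in JunB cKO. Their log2 ratios ran from -0.52 for Krt14 to 0.88 for Krt10.

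Besides α6, the α3 and α7 subunits bind laminins. Itga3, whose α3β1 receptor binds laminin-332 outside hemidesmosomes, lies on chromosome 11 from 95044474 to 95076801 on the minus strand. It was at 24.4 FPKM in wild type against 26.0 in JunB cKO keratinocytes, at 18.1 and 45.6 after hair plucking, and at 16.5 and 10.5 in wounds. Its log2 ratio was 1.29 after hair plucking, a 2.53-fold higher FPKM at percentile 87.6 of expressed symbols, and -0.61 in wounds. In JunB cKO after hair plucking, Itga3, Itga6 and Itgb4, the laminin-binding subunits of basal keratinocytes, thus all had a higher FPKM than in wild type, as had Lama3 and Lamb3, whereas Itgb1 was at a log2 ratio of -0.12. Itga7, known from muscle, was at 0.929 and 1.47, at 1.86 and 0.733, and at 3.61 and 3.89, and was not past 2-fold in any table with 1 FPKM added, but its log2 ratio after hair plucking was -1.24 with 0.1 FPKM added.

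**Figure D5:**
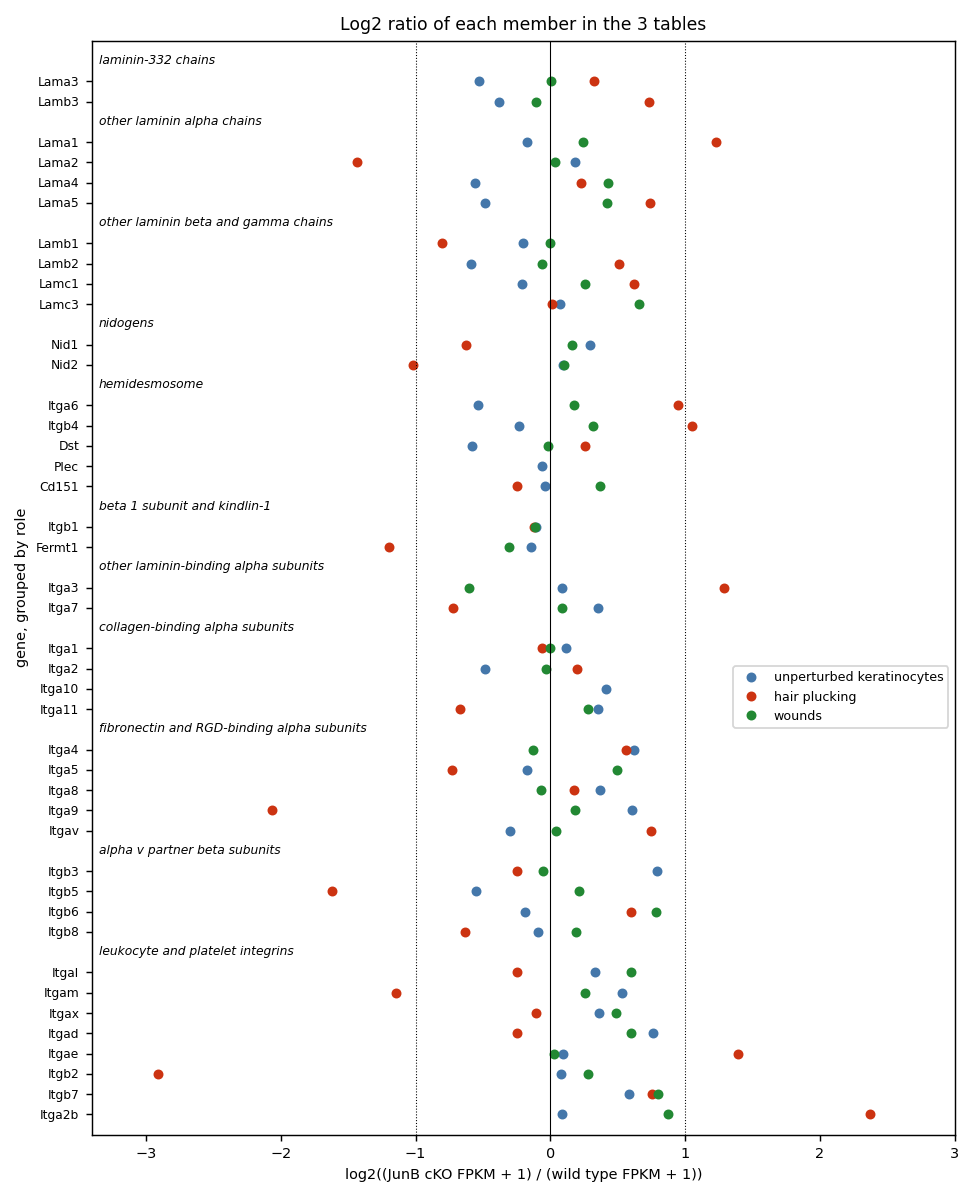
Log2 ratio of JunB cKO over wild type with 1 FPKM added (horizontal axis) of each member, grouped by role, in unperturbed keratinocytes (blue), after hair plucking (red) and in wounds (green). Each point is 1 value without replicates, and the dotted lines mark the 2-fold limit. Points past the limit are all red, and Lama3, Lamb3, Itga6, Itgb4 and Itga3 lie right of 0 after hair plucking, Itga9, Itgb5 and Itgb2 far left of it.

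Of the collagen-binding α subunits, none was past 2-fold. Itga2, whose α2β1 receptor binds collagen I and is found on basal keratinocytes, was at 10.4 FPKM in wild type against 7.14 in JunB cKO keratinocytes, at 4.81 and 5.67 after hair plucking, and at 3.55 and 3.44 in wounds. Itga1 and Itga11, known from mesenchymal cells, were below 1 FPKM in keratinocytes and were at 9.02 FPKM or below in both other tables. Itga10, the α10 subunit of cartilage, was at 0.220 and 0.621 FPKM in keratinocytes, with a log2 ratio of 0.41 that was 1.17 with 0.1 FPKM added. In both other tables it had no row of its own and was not counted.

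Among the α subunits for fibronectin, vitronectin and related ligands, Itga9 had the largest difference. It encodes α9, which pairs with β1 and binds tenascin-C and VCAM1, and lies on chromosome 9 from 118606690 to 118901003 on the plus strand. Itga9 was at 0.104 FPKM in wild type against 0.684 in JunB cKO keratinocytes, at 15.9 and 3.04 after hair plucking, and at 6.24 and 7.23 in wounds. The log2 ratio after hair plucking was -2.07, at percentile 4.49 of expressed symbols, and those of both other tables were above 0. Its locus after hair plucking and in wounds spans Ctdspl as well, which also has a row of its own. Itgav, whose αv subunit pairs with β1, β3, β5, β6 and β8, was at 32.6 and 26.3 FPKM in keratinocytes, at 22.7 and 38.8 after hair plucking, and at 34.6 and 35.7 in wounds, with log2 ratios of -0.30, 0.75 and 0.04. Itga5, the fibronectin receptor subunit, was at 1.92 and 1.59, at 3.05 and 1.45, and at 2.79 and 4.32. Itga4 and Itga8 lay between 0.0530 and 7.53 FPKM over all tables, and their log2 ratios between -0.13 and 0.62.

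The β partners of αv went in different directions after hair plucking. Itgb5, which binds vitronectin as αvβ5 in resting keratinocytes and in many other cells, lies on chromosome 16 from 33829665 to 33949338 on the plus strand. It was at 39.3 FPKM in wild type against 26.5 in JunB cKO keratinocytes, at 70.2 and 22.2 after hair plucking, and at 51.9 and 60.3 in wounds. Its log2 ratio after hair plucking was -1.62, at percentile 7.74 of expressed symbols, and its share in the β subunits was 26.2% in wild type against 10.1% in JunB cKO. Itgb6, an epithelial subunit of which αvβ6 activates latent TGF-β, was at 4.47 and 3.80 FPKM, at 8.13 and 12.8, and at 6.08 and 11.2, with log2 ratios of -0.19, 0.60 and 0.78. Itgb8, whose αvβ8 also activates latent TGF-β, was at 6.21 and 5.75, at 23.6 and 14.9 (log2 ratio -0.63), and at 13.3 and 15.3. Its log2 ratio of -0.10 in keratinocytes became 0.03 relative to the median of symbols. Itgb6 was thus higher and Itgb5 and Itgb8 were lower in JunB cKO after hair plucking, when Itgav itself was higher. Itgb3, the β3 subunit of platelets, vessels and bone, was at 0.0954 and 0.899, at 3.09 and 2.46, and at 5.32 and 5.07.

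The integrins of leukocytes and platelets were low in keratinocytes, none above 1.78 FPKM. All 8 were higher in JunB cKO there, in the library with the higher values of receptor genes. How many of all symbols with such low values were also higher was not counted. After hair plucking, 2 of the 8 were past 2-fold lower and 2 past 2-fold higher, beside 14.6% and 16.3% of expressed symbols. Itgb2, which encodes CD18, the β2 subunit shared by the leukocyte integrins, lies on chromosome 10 from 77530252 to 77565708 on the plus strand. It was at 0.733 FPKM in wild type against 0.829 in JunB cKO keratinocytes, at 20.4 and 1.85 after hair plucking, and at 30.0 and 36.6 in wounds. At a log2 ratio of -2.91 in the table of hair plucking, percentile 1.86 of expressed symbols and from about 778 and 55.7 reads, it was the lowest of all members. Itgam, which encodes CD11b, its α partner on macrophages and neutrophils, was at 0.713 and 1.48 FPKM in keratinocytes, at 7.51 and 2.85 after hair plucking (log2 ratio -1.14), and at 8.97 and 10.9 in wounds. Itgb2 and Itgam were lower only in the table of hair plucking. Beside them, 5 of 10 leukocyte markers were past 2-fold lower there, beside the same 14.6%, namely Ptprc (25.7 and 10.3 FPKM), Cd68 (34.9 and 6.23), Lyz2 (136 and 51.5), Csf1r (18.3 and 8.48) and Adgre1 (9.98 and 2.26). The 10 markers summed to 294 FPKM in wild type against 132 in JunB cKO, with Cd79a at 0 in both and Cd207, a marker of Langerhans cells, higher at 8.40 and 15.8. In wounds no leukocyte marker was past 2-fold, and the sums were 438 and 458 FPKM. The part of leukocyte number in the values of Itgb2 and Itgam was not tested.

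Itgae, whose αE subunit with β7 binds E-cadherin on epidermal T cells, was at 1.34 and 1.495 FPKM in keratinocytes, at 0.254 and 2.28 after hair plucking (log2 ratio 1.39), and at 2.64 and 2.71 in wounds. Its wild type value after hair plucking rests on about 12.5 reads. Its partner Itgb7 was at 0.861 and 1.78, at 1.41 and 3.08, and at 1.43 and 3.22 FPKM, and was higher in JunB cKO in all 3 tables. It had a 2.18-fold higher FPKM after hair plucking and a 2.25-fold higher one in wounds, and was within the limit there only through the 1 FPKM added. Itga2b, which encodes the platelet subunit αIIb and lies on chromosome 11 from 102453297 to 102470122 on the minus strand, had the highest log2 ratio of all members. It was at 0.347 and 0.434 FPKM in keratinocytes, at 2.40 and 16.6 after hair plucking, and at 6.89 and 13.5 in wounds. The value after hair plucking was 6.93-fold that of wild type, with a log2 ratio of 2.37 at percentile 95.4 of expressed symbols, from about 106 and 578 reads. Its partner in platelets, Itgb3, was not higher in that table. The 3 listed platelet markers Pf4, Ppbp and Gp9 were at 0 in both genotypes after hair plucking. In wounds, Pf4 was at 32.1 FPKM in wild type against 33.3 in JunB cKO, Ppbp at 0.736 and 0.286, and Gp9 at 0 in both. In keratinocytes, where Itga2b was below 1 FPKM in both genotypes, the same 3 markers were at 0 in wild type and past 2-fold higher in JunB cKO, at 1.04, 2.51 and 1.31 FPKM. The only other marker past 2-fold there was the adipocyte gene Plin1, at 0 and 1.81 FPKM. Of all symbols in keratinocytes, 9.31% were past 2-fold higher in JunB cKO. In that JunB cKO library, 1 FPKM corresponded to about 3.92 reads per kb of transcript, and receptor genes had a median of 0.543 FPKM. These marker values thus rest on few reads. Itgal, the LFA-1 subunit of lymphocytes, and Itgax, the CD11c subunit of dendritic cells, were within 2-fold in each table, from 0.554 to 2.68 FPKM and from 0.804 to 7.20 FPKM. Itgad, the αD subunit, was at 0.693 FPKM or below in each genotype and table and was listed at 0 in 3 of the 6 values.

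Genes around these receptors were taken from lists by function, whose counts stand beside the shares of expressed symbols given above for each table. After hair plucking these were 16.3% past 2-fold higher and 14.6% lower. Of 14 integrin adaptors and kinases, such as talin, vinculin and integrin-linked kinase, 0 were past 2-fold in keratinocytes and wounds, and after hair plucking 1 was, Parvb, an actin-linking parvin, at 9.68 FPKM in wild type against 0.0217 in JunB cKO. Of 16 further basement membrane genes, 5 were past 2-fold higher and 2 past 2-fold lower in JunB cKO after hair plucking, the latter a share near that of expressed symbols. Col17a1, the transmembrane collagen of hemidesmosomes, which binds integrin α6 and β4, was at 179 and 369 FPKM there (log2 ratio 1.04), and at 645 and 412 in keratinocytes (log2 ratio -0.65). It thus had the signs of Itga6 and Itgb4 in both tables. In keratinocytes, 78.7% of all symbols with at least 10 FPKM in either genotype were also lower in JunB cKO. The others past 2-fold higher after hair plucking were Fras1 (1.77 and 20.2 FPKM) and Frem1 (2.87 and 19.4), which form a complex at the basement membrane, Npnt (6.18 and 31.0), the ligand of α8β1, and Bcam (36.6 and 84.8), a receptor for laminin α5. Lower were the collagen IV chain Col4a2 (43.6 and 13.2) and the perlecan gene Hspg2 (27.2 and 11.1). Col4a1, another collagen IV chain, was within 2-fold at 51.5 and 42.9 FPKM (log2 ratio -0.26). In keratinocytes 1 of the 16, Col4a5, was past 2-fold lower at 11.1 and 4.94 FPKM. In wounds Fras1 was past 2-fold higher at 3.27 and 9.14 and Col4a3 past 2-fold lower at 3.16 and 0.841. Of 12 integrin ligands, Tnc, the tenascin-C that α9β1 binds, was past 2-fold lower after hair plucking at 29.8 and 11.9 FPKM, as was Spp1, the gene of osteopontin, at 6.59 and 2.50. In wounds Tgfb1 was past 2-fold higher at 6.88 and 19.3, and in keratinocytes 0 of the 12 ligands were past the limit.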

How the data were processed

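Each library was made from a pool of RNA of 3 samples after removal of rRNA, with a kit that keeps the strand, and read from 1 end over 75 bases. After trimming and filtering, the authors aligned the reads to GRCm38 (mm10 in the labels) and assembled and compared loci with Cufflinks and Cuffdiff. The deposited tables hold 1 FPKM value per locus and genotype, as calculated by the authors. They also hold the authors' log2 fold changes, test statistics, p-values, q-values and a mark of significance, which were not used. Genotypes of columns come from names inside the tables, and the condition of the tables of hair plucking and wounds only from their names. The 2 wound libraries per genotype are not separated.

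Each symbol was represented by its locus with the largest sum of FPKM, and loci with several symbols were left out. The log2 ratio was calculated with 1 FPKM added, without a filter, and 2-fold was the limit. With 1 value per genotype no test was carried out. A gene that the choice by symbol also takes in is not reported here. Members and gene lists were chosen with earlier results of these data known. Full values are given by rule for members with an FPKM of at least 10 or past 2-fold in a table, and list genes are named where past 2-fold. Members under a mean of 1 FPKM in every table are named once. Where other members or list genes are given with values, this was decided after the values had been seen. Reads behind 1 FPKM were estimated from receptor genes with a locus of 880 to 1000 bases, whose low values come in steps of whole reads, and cover counting only. Coordinates are 1-based, from GENCODE on GRCm38. Promoter sequences are those of RefSeq on GRCm38.p6.

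The calculation was checked on data with known answers. Alternatives were pseudocounts of 0.1 and 0.01, a mean FPKM of at least 1, centring on the median of expressed symbols, FPKM summed over loci, loci with status OK only, a limit of 1.5-fold and, added after the data had been seen, a minimum of 10 FPKM. Python 3.11.15, pandas 2.3.3, numpy 2.4.6 and matplotlib 3.10.9 were used.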

Additional observations from a re-analysis of the deposited data

Results flagged for a closer look

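For 5 members, the value after hair plucking was past 2-fold lower and the values in both other tables lay above 0. Each table holds 1 value per genotype, so that the difference between the tables was not tested. Itgb2 had a log2 ratio of -2.91 after hair plucking, of 0.078 in unperturbed keratinocytes and of 0.28 in wounds. Itga9 was at -2.07, 0.61 and 0.19 in the same order. Lama2 was at -1.43, 0.19 and 0.034, Itgam at -1.14, 0.53 and 0.25, and Nid2 at -1.02, 0.10 and 0.10. Each of these 5 was below 1 FPKM in wild type keratinocytes.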

How the results depend on the processing

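With a pseudocount of 0.1 in place of 1, 6 members were past 2-fold higher in JunB cKO keratinocytes and 2 in wounds, and with 0.01 these were 9 and 3, against 0 in both. After hair plucking, 6 were past 2-fold higher and 10 lower with either pseudocount, against 5 and 7, the additions being Itgb7 higher and Itga5, Itga7 and Itgad lower. With a limit of 1.5-fold, the higher and lower members numbered 4 and 1 in keratinocytes, 12 and 13 after hair plucking, and 6 and 1 in wounds. The median log2 ratio of the members in keratinocytes was 0.016, and it was -0.19 for members with a mean FPKM of at least 1, -0.18 for loci with status OK, -0.34 for members with at least 10 FPKM, a minimum chosen after the data had been seen, and 0.14 after centring. After hair plucking, the median of -0.02 was 0.094 with a mean FPKM of at least 1 and 0.26 with at least 10 FPKM, where 3 members in place of 5 were past 2-fold higher. Of the single values of members, 12 came past 2-fold with a pseudocount of 0.1 and 16 with 0.01. Another pseudocount or a minimum FPKM cannot turn a direction. With FPKM summed over loci, and with loci of status OK only, 0 values turned theirs. Centring turned the sign of 7 values, all close to 0, namely Plec, Cd151, Itgb1 and Itgb8 in keratinocytes, Lamc3 after hair plucking, and Lama3 and Itga1 in wounds. No paired analysis was possible because the wound table holds 1 column per genotype for 2 libraries, and for the same reason fits without 1 replicate were not run. In JunB cKO keratinocytes, 1 FPKM rests on the fewest reads, which limits members under 1 FPKM there.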
